A study of Mus musculus with 2 samples.

Results

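The nuclear genes of the mitochondrial respiratory chain and ATP synthase were followed in ureters of mouse embryos at stage E18.5. Genes were taken by name from both scanner files, as every non-control spot whose gene name began with Nduf, Uqcr, Atp5, Sdha to Sdhd, or Cox4 to Cox8. This gave 92 genes of 31870, carried by 123 of 39429 probes and 132 of 43020 spots per array. The names also caught 8 assembly factors and relatives, and Cox4nb, now Emc8, a subunit of the endoplasmic reticulum membrane complex and no part of the chain. Below, the term chain genes stands for all genes taken by name, with these included. The muscle-type isoforms Cox6a2, Cox7a1 and Cox8b were kept apart from the other complex IV genes.

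The study compared Rbpj-cKO ureters, genotype Tbx18(cre/+);Rbpj(fl/fl), with control ureters, genotype Rbpj(fl/?), all of strain NMRI. Rbpj encodes a DNA-binding protein that carries Notch signals to target genes, and the comparison asks what changes when it is targeted for deletion by a cre under Tbx18, a gene of the mesenchyme around the ureter. The urothelium is no known target of this cre, and the control labels list no cre. RNA was hybridised to 2 two-colour arrays. The male array carried Rbpj-cKO RNA in red (AlexaFluor647) and control RNA in green (AlexaFluor555), and the female array had the dyes the other way round. Sex and dye orientation therefore cannot be told apart. The labels do not say whether RNA was pooled, so p-values measure only the spread between these 2 arrays, which may be technical. In whole ureters, fewer cells of a type and less RNA per cell cannot be told apart.

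The respiratory chain sits in the inner mitochondrial membrane. Complex I takes electrons from NADH and complex II takes them from succinate. They pass through ubiquinone to complex III, then by cytochrome c to complex IV, where oxygen is reduced. Complexes I, III and IV pump protons, and complex V, the ATP synthase, uses the gradient to make ATP. Complex II is built from nuclear genes alone, whereas the other complexes combine nuclear with mitochondrially encoded subunits. Smooth muscle, heart, skeletal muscle and brown fat differ in how much of the chain they hold, and heart and skeletal muscle use their own isoforms of several complex IV subunits.

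The chain genes were among the bright probes of these arrays. Of the 132 spots, 130 to 131 were well above background in each channel, and none was saturated. The median signal of these spots was 1352 to 2147 times background, against 6.38 to 13.3 times over all spots. As a check of the labels, Rbpj itself had log2 levels of 12.70 in Rbpj-cKO and 14.28 in control on the male array, and 12.96 and 13.89 on the female array. Its mean was 2.39-fold lower in Rbpj-cKO (adjusted p = 0.0760, limma). Ratios below are log2 values of Rbpj-cKO over control, so that 0 is no difference. Levels are log2 intensities scaled across channels, and they are compared only within a probe.

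Most chain genes had ratios near 0. Of the 92 genes, 91 could be tested, and Cox7b2, a testis isoform, was not well above background in any channel. The median log2 ratio over the 91 genes was -0.01, with -0.02 on each array, and over all 20989 features tested it was 0.01. The middle 50% of the chain genes spanned 0.143, against 0.204 for all features. For the 913 features at least as bright as the median chain gene, the middle 50% spanned 0.146. Of the 91 genes, 85 (93.4%) had a mean ratio within 0.2 of 0, a share that was 77.9% among all features. Among those 913 bright features, that share was 90.6%. Among the 6 genes outside this band were Cox8b above it and Cox8c, Cox6c, Ndufa4 and Atp5f1 below it.

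With limma's moderated test and Benjamini-Hochberg adjustment over all features, 0 of the 91 chain genes passed at 0.05 in either direction. Among all features, 0.0429% passed as higher and 0.0858% as lower. At an unadjusted p under 0.05 in limma's fit there were 708 features, of which 2, Cox8c and Cox8b, were chain genes. The smallest adjusted p of a chain gene was 0.437, for Cox8c, and an intensity trend in the prior variance brought it to 0.0247, the only setting tried in which a chain gene passed. Cox8c entered the test through its control channels alone, where it is higher, so its p-values support no call. For 75 of the 91 genes (82.4%) the 95% interval of the ratio lay within 1.5-fold either way, against 62.3% of all features. Among the 913 features at least as bright as the median chain gene, that share was 76.5%. The width of these intervals is set largely by the prior, with a median half-width of 0.432 for chain genes. They cover the spread of these 2 arrays only and do not bound an effect of genotype. No feature with a mean ratio smaller than 1.22 in size passed the test.

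Few chain genes differed in the same direction on both arrays. There were 11 higher in Rbpj-cKO on both (12.1%), against 21.7% of all features, and 16 lower on both (17.6%), against 19.7%. For the 913 features at least as bright as the median chain gene, these shares were 13.8% and 13.1%. The other 64 chain genes (70.3%) had opposite signs on the 2 arrays, as did 58.6% of all features and 73.1% of the equally bright ones. Counting only differences of at least 1.5-fold on both arrays, 0 chain genes were higher, where 0.205% of all features were. On the lower side there was 1, where 0.434% of all features were. It was Cox8c, which passed the filter only through its control channels, so nothing is read from this count. Levels of Rbpj-cKO and control did not overlap over the 4 channels for 19 of the 91 genes (20.9%), against 27.4% of all features. Across the 91 genes the ratios of the 2 arrays had a Pearson correlation of -0.36. For the 75 subunits of complexes I to V, tissue-restricted isoforms left out, this correlation was -0.60. It was -0.18 across all features and -0.54 across the equally bright ones. These genes share 2 hybridisations, and the value is a description.

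**Figure D1:**
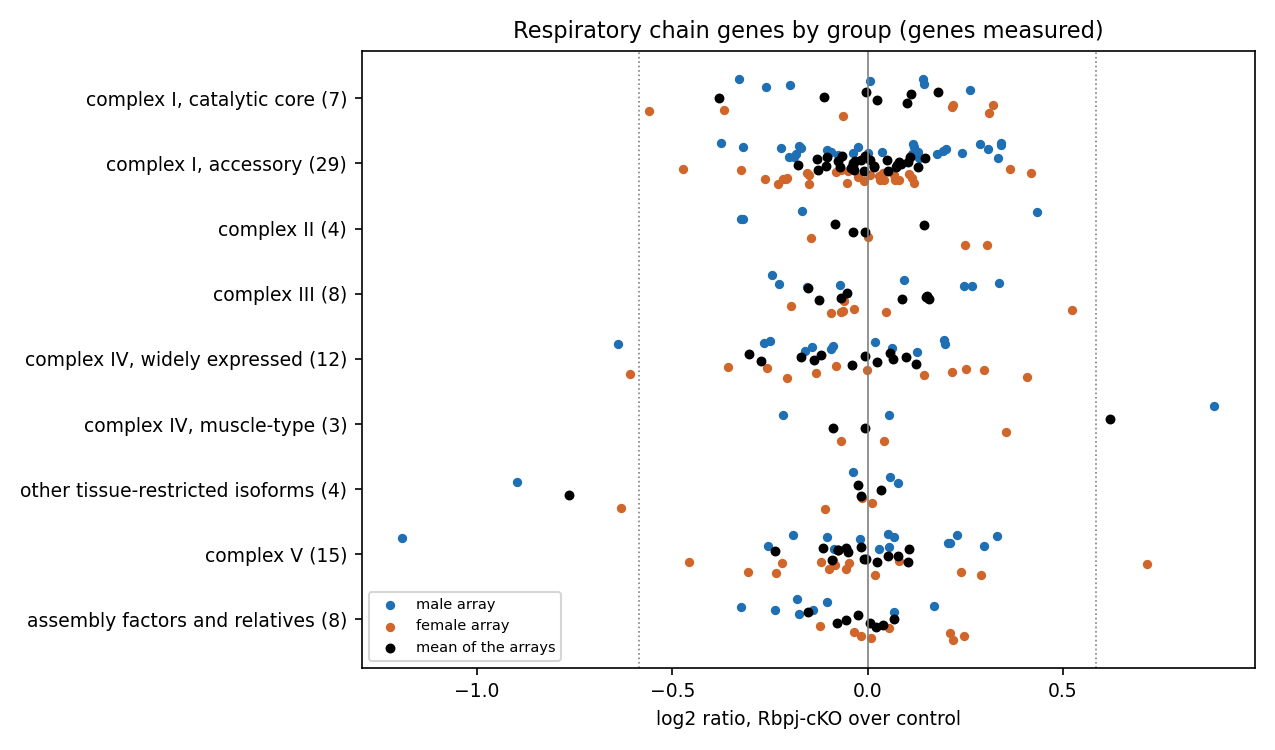
Log2 ratio of Rbpj-cKO over control (horizontal axis) for the 91 measured genes except Cox4nb (Emc8), which is not drawn. Genes are in rows by group, each with 1 blue point (male array), 1 orange point (female array) and 1 black point (their mean). Dotted lines mark 1.5-fold. Of the means of all 91 genes, 85 lie within 0.2 of 0, the undrawn Cox4nb (-0.13) among them. Cox8b (0.62) and Cox8c (-0.76) are the outermost black points.

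**Figure D2:**
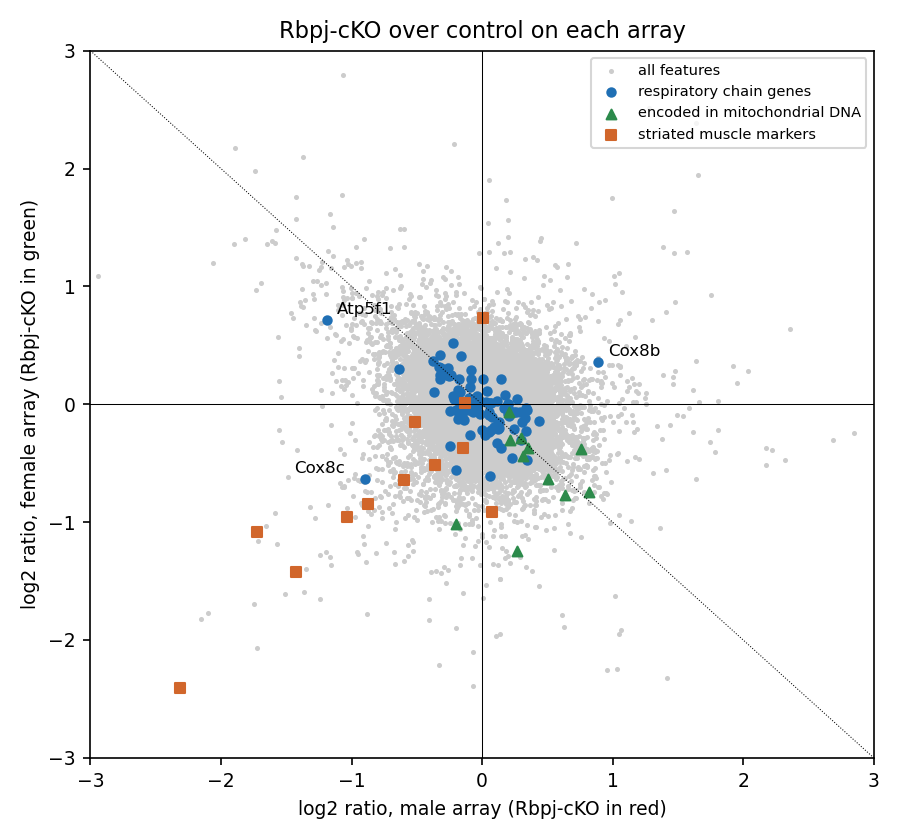
Log2 ratio of Rbpj-cKO over control on the male array (horizontal) and on the female array (vertical), with 1 point per feature. Grey points are all features, of which 6 lie outside the axes, blue circles the chain genes, green triangles genes encoded in mitochondrial DNA and orange squares striated muscle markers. The dotted diagonal is where ratios are equal and opposite. The chain genes gather near the centre, 10 of 11 green triangles lie right of 0 and below 0, and 9 of 12 orange squares lie left of 0 and below 0.

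Complex I had 36 genes measured and a median ratio of -0.01 (0.02 on the male array and -0.02 on the female array). Of these, 35 lay within 0.2 of 0. The 7 catalytic core genes had a median of 0.03 and the 29 accessory genes one of -0.01, and none passed the test.

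Ndufv1, the core subunit that binds NADH, had the highest mean of complex I. Its levels were 16.53 in Rbpj-cKO and 16.39 in control on the male array, and 16.61 and 16.39 on the female array. The levels did not overlap, and the mean ratio was 0.18 (SD 0.05, n = 2). The accessory genes ran from -0.18 for Ndufa6 (-0.09 and -0.26) to 0.15 for Ndufs5 (0.34 and -0.05). Accessory subunits surround the core and are needed for its assembly or stability.

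The 4 genes of complex II, succinate dehydrogenase, had a median of -0.02, but it was -0.24 on the male array and 0.13 on the female array. Sdha, which carries the flavin and oxidises succinate, had levels of 14.81 in Rbpj-cKO and 15.13 in control on the male array, and 15.01 and 14.71 on the female array. Sdhb, the iron-sulfur subunit, had 16.95 and 16.52 on the male array and 16.86 and 17.01 on the female array. The membrane anchor Sdhc had 15.29 and 15.46, then 15.42 and 15.41. The other anchor, Sdhd, had 15.715 and 16.039, then 15.996 and 15.746. All 4 genes had opposite signs on the 2 arrays, and Rbpj-cKO and control levels overlapped for each. Their mean ratios were -0.01 for Sdha, 0.14 for Sdhb, -0.08 for Sdhc and -0.04 for Sdhd.

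Complex III had 8 genes measured, with a median of 0.02 (0.01 and -0.06), and all 8 lay within 0.2 of 0. Uqcrfs1, the Rieske iron-sulfur protein, was lowest at -0.15 (-0.24 and -0.06), followed by Uqcrb, which lies near the ubiquinone site, at -0.12 (-0.16 and -0.09). Uqcrc2, a core protein of the complex, was highest at 0.16 (0.27 and 0.05), followed by the small subunit Uqcrq at 0.15 (0.34 and -0.03). Uqcrc2 was printed on each array many times over and so shows the error within an array. Its 10 spots on the male array had a mean ratio of 0.27 with an SD of 0.017, and the 9 spots kept on the female array had 0.05 with an SD of 0.036. The gap between the arrays was thus far wider than the spread among spots of 1 array.

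Complex IV, cytochrome c oxidase, had 12 widely expressed nuclear genes, Ndufa4 among them since its protein is now placed there. Their median was -0.02 (-0.09 and -0.04), 10 lay within 0.2 of 0, and none passed the test. Cox6c, a small nuclear subunit, had levels of 16.58 in Rbpj-cKO and 16.82 in control on the male array, and 16.42 and 16.78 on the female array. Both Rbpj-cKO levels were below both control levels, and the mean ratio was -0.30 (SD 0.08, n = 2, 95% interval -0.73 to 0.12). With median centring the 2 arrays gave 0.34 and -0.90 for this gene, so the shared direction was lost there. Ndufa4 had 0.06 and -0.61, a mean of -0.27.

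The 3 muscle-type isoforms did not move as a group. Their median was -0.01 (0.06 and 0.04), and none passed the test. Cox8b, the heart and skeletal muscle form of subunit VIII, which brown fat also uses, was the highest of the 91 genes. Its levels were 14.96 in Rbpj-cKO and 14.07 in control on the male array, and 14.66 and 14.30 on the female array. Both Rbpj-cKO levels were above both control levels. The ratios were 0.89 and 0.35, with a mean of 0.62 (SD 0.38, n = 2, 95% interval 0.16 to 1.08), or 1.54-fold higher, and the adjusted p was 0.974 in limma. Across the 8 settings that used both arrays the mean was 0.62 to 0.69, and limma's smallest adjusted p was 0.646. Several of these settings cannot change the ratio of a gene with 1 bright probe, so the narrow range is no sign of stability. With median centring the 2 arrays gave 1.21 and 0.14. The probe lies at chr7:148084852-148084911 on mm9.

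Cox7a1, the muscle form of subunit VIIa, had levels of 11.64 in Rbpj-cKO and 11.86 in control on the male array, and 11.80 and 11.76 on the female array. The levels overlapped, and the mean ratio was -0.09 (SD 0.18). Cox6a2, the muscle form of subunit VIa, was dim but well above background in all 4 channels. It had 7.81 and 7.75 on the male array and 7.90 and 7.96 on the female array, a mean ratio of -0.01 (SD 0.09). The levels of Cox6a2 overlapped as well.

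The widely expressed counterparts did not pass the test either. Cox8a had levels of 17.48 in Rbpj-cKO and 17.75 in control on the male array, then 17.82 and 17.57 on the female array, a mean ratio of -0.01. Cox7a2 had ratios of -0.14 and -0.13, Cox6a1 had -0.16 and 0.41, and Cox7a2l, a relative of Cox7a2 found in supercomplexes, had 0.20 and -0.00. The ratio of Cox8b minus that of Cox8a was 1.15 on the male array and 0.10 on the female array. The corresponding difference was -0.07 and 0.17 for Cox7a1 minus Cox7a2, and 0.22 and -0.48 for Cox6a2 minus Cox6a1. Only the Cox8 pair thus had a difference of the same sign on both arrays among these 3 pairs, and on the female array it was small.

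**Figure D3:**
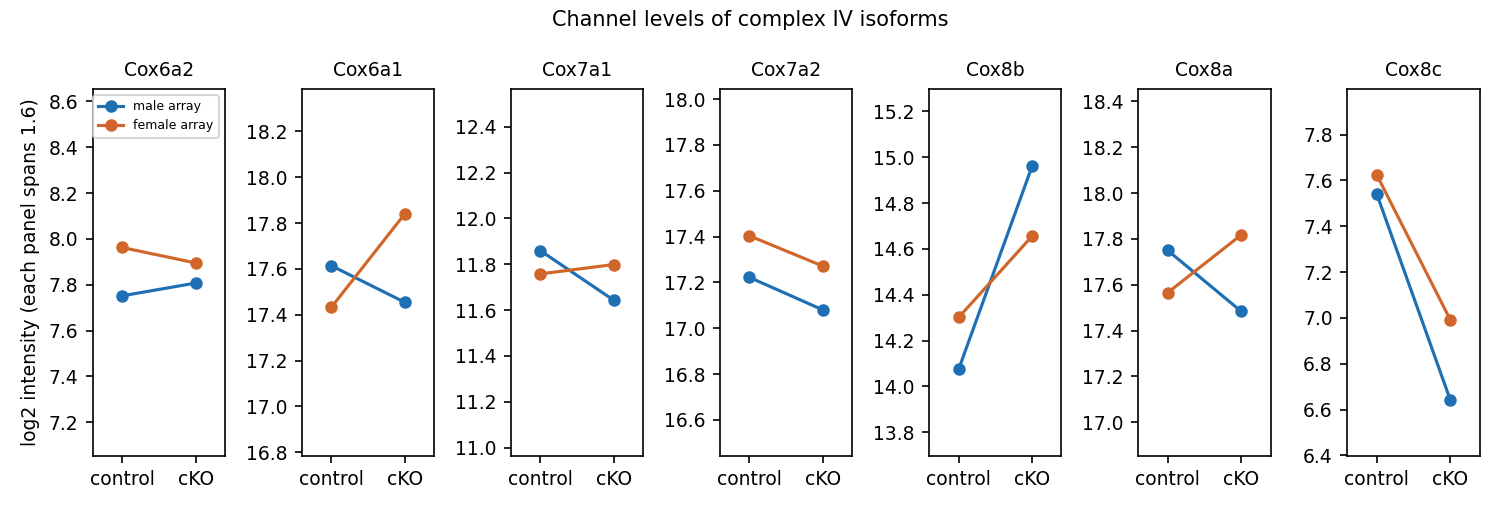
Log2 intensity (vertical axis, each panel spanning 1.6) in control and Rbpj-cKO channels for the muscle-type isoforms Cox6a2, Cox7a1 and Cox8b, their widely expressed counterparts, and Cox8c. Each line joins the 2 channels of 1 array, blue for male and orange for female. The Cox8b lines both go up and the Cox8c lines both go down, whereas the lines of Cox6a2, Cox7a1, Cox6a1 and Cox8a slope in opposite directions.

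Most striated muscle markers had lower values where Cox8b had higher ones. Of 12 measured, 9 were lower in Rbpj-cKO on both arrays, 1 was higher on both, and the median ratio was -0.53 (-0.55 and -0.74). Their mean log2 level was 11.46 in Rbpj-cKO and 12.21 in control on the male array, and 11.50 and 12.22 on the female array. Myh6 (-2.36), the cardiac alpha myosin heavy chain, Ckm (-1.43), muscle creatine kinase, and Myl4 (-1.40), an atrial light chain, fell and passed limma's test. Tnnt2 had -0.996, Tnnc2 -0.86, Actc1 -0.62, Tnnt3 -0.44, Myh8 -0.42, Acta1 -0.33, Myh3 -0.26, Myh7 -0.06 and Myl1 0.37, none past the test. Cox6a2 and Cox7a1, which the same tissues use, stood near 0 beside them.

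Markers of brown fat, the other tissue known for Cox8b, were measured for 6 of 8 genes, with a median of 0.12 (0.08 and 0.07). They were Prdm16 (-0.08), Dio2 (0.06), Cidea (0.11), Ebf2 (0.13), Plin5 (0.14) and Ppara (0.20), and none passed the test. Their mean log2 level was 9.93 in Rbpj-cKO and 9.88 in control on the male array, then 10.03 and 9.89. The defining gene Ucp1 did not pass the filter on dim probes, nor did Elovl3. Of the general fat markers, Fabp4 (0.05) and Pparg (0.15) were measured, whereas Adipoq, Plin1, Lep and Cidec did not pass the filter. The part of either tissue in the Cox8b ratio was not tested.

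Among the other isoforms with restricted expression, Cox8c stood apart. It is a testis form of subunit VIII, and it was dim. Its levels were 6.64 in Rbpj-cKO and 7.54 in control on the male array, and 6.99 and 7.62 on the female array. It was well above background in control on both arrays and not well above it in Rbpj-cKO on either. The gene passed the filter through its control channels alone. The bright mean was 7.58 and the dim mean 6.82, a measured difference of 1.70-fold that is not a lower bound. Limma's adjusted p was 0.437, and it supports no call. The ratios were -0.90 and -0.63, and their mean of -0.76 moved as far as -2.38 with the processed signals, so its size is not settled. The probe lies at chr12:104138678-104138736 on mm9.

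The remaining restricted isoforms were close to 0. Cox4i2, the lung-enriched and hypoxia-linked form of subunit IV, had 0.06 and 0.01. Cox6b2, a testis form, had 0.08 and -0.11. Ndufa4l2, a hypoxia-induced relative of Ndufa4, had -0.04 and -0.01. These 3 genes were named after their values were seen, to complete the group.

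Complex V had 15 genes, with a median of -0.02 (0.05 and -0.08), and 14 lay within 0.2 of 0. Of the 15, 12 had opposite signs on the 2 arrays, and none passed the test. The exception to the narrow range was Atp5f1, now Atp5pb, subunit b of the stalk that holds the catalytic head in place. Its levels were 14.45 in Rbpj-cKO and 15.64 in control on the male array, and 15.42 and 14.70 on the female array. The green channel was the higher one on each array. The ratios were -1.19 and 0.71, a mean of -0.24 with an SD of 1.35, the widest gap between arrays in the group. The other probe for this gene gave -1.32 and 0.98, with the same signs. Sex and dye cannot be told apart for it.

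The other ends of the complex V range were small. Atp5h, subunit d of the stalk, had 0.33 and -0.12. Atp5g2, one of the genes for the proton-carrying c ring, had -0.09 and 0.29. Atp5k, the membrane subunit e, had 0.23 and -0.46, and its mean of -0.11 became 0.03 with processed signals. With the series value table the Atp5k mean was -0.17. Of the assembly factors and relatives, 8 were measured and none passed, with a median of -0.01 (-0.16 and 0.03). Sdhaf2, which adds the flavin to Sdha, was lowest at -0.15 (-0.18 and -0.12), and at -0.083 with median centring or processed signals. Atp5s had -0.08, Ndufaf1, a complex I assembly factor, 0.04 and Atp5sl 0.07. The Ndufaf1 value became 0.11 with median centring and 0.10 with processed signals. Cox4nb (Emc8) had -0.37 and 0.10.

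Probes of 1 gene gave another view of the error. For 24 genes with more than 1 probe past the filter, the means of a gene's probes lay at most 0.249 apart (Ndufb11). The arrays taken singly disagreed more. The brighter Cox8a probe had -0.27 (male) and 0.25 (female), and the dimmer one had 0.22 and -0.23, so that the signs were exchanged while both means were -0.01. For Cox7a2l the brightest probe had 0.20 and -0.00, whereas the dimmest had -0.69 and 0.40. Cox7c, singled out after its values were seen, had -0.64 and 0.30 with its brightest probe and 0.06 and -0.61 with the next, while its 3 probe means lay between -0.27 and -0.16. A ratio from 1 array of this pair thus said less about a chain gene than the mean of the arrays.

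**Figure D4:**
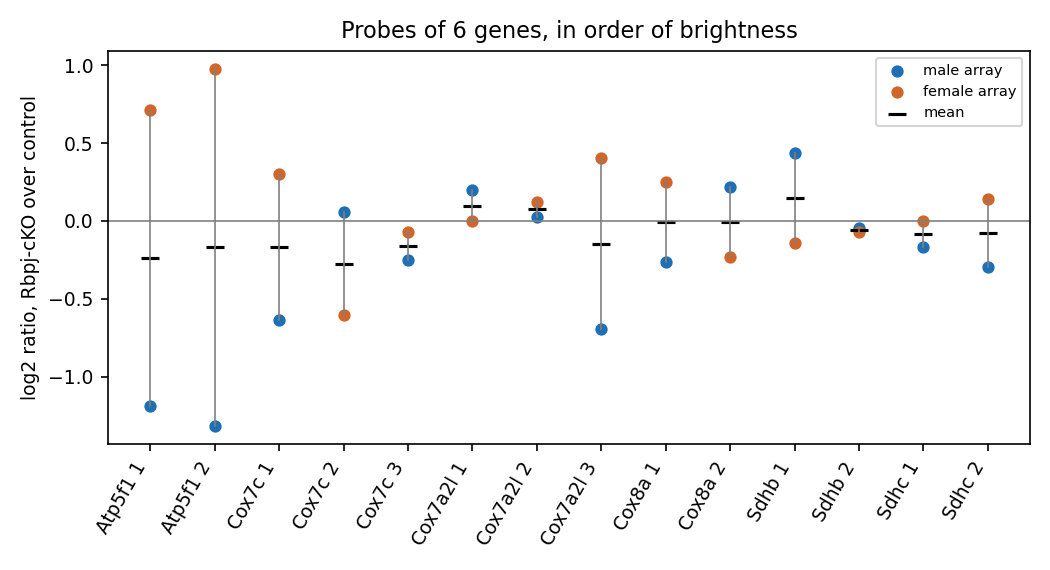
Log2 ratio of Rbpj-cKO over control (vertical axis) for each probe of 6 genes with more than 1 probe, numbered from the brightest. Blue points are the male array, orange points the female array and black bars their mean. Both Atp5f1 probes have blue below -1 and orange above 0.7, and the 2 Cox8a probes have their colours exchanged around the same mean.

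Genes encoded in mitochondrial DNA, the partners of these subunits, were measured for 11 of 13. Their median was -0.04, but 0.31 on the male array and -0.43 on the female array. In 10 of the 11 the red channel was the higher on both arrays, and in none the green. Of the 913 features at least as bright as the median chain gene, red was higher on both for 421 and green for 246. Over all 20989 features these counts were 6153 and 6150. The median excess of red was thus 0.31 on one array and 0.43 on the other. None passed the test. The means ran from -0.61 for ND3 (-0.20 and -1.01), a complex I subunit, to 0.19 for CYTB (0.76 and -0.38), the cytochrome of complex III. In the files, 6 of these probes are placed on the mitochondrial chromosome and 5 on chromosome 1, where nuclear copies of mitochondrial sequence are known, so that the source of the latter signal is uncertain.

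Pathways around the chain had medians near 0 too, and in each of the next lists 0 genes passed limma's test in either direction. Cytochrome c and assembly factors with other names (38 measured) had a median of -0.01, from Tmem70 (-0.28), an ATP synthase assembly factor, to Cyct (0.996), the testis cytochrome c, whose ratios were -0.21 and 2.20. Cyct was well above background in only 1 of its 2 control channels and passed the filter through its Rbpj-cKO channels, so its size is not settled. Regulators of mitochondrial biogenesis (19) had a median of 0.01, from the estrogen-related receptor Esrrg (-0.25) to the nuclear receptor Ppard (0.26). The mitochondrial ribosome (75) had -0.03, from Mrpl47 (-0.21) to Mrps25 (0.14). These 3 lists hold genes that help to build or supply the chain.

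The fuel pathways had medians of 0.00 for the citric acid cycle (18 measured), 0.01 for fatty acid oxidation (19) and 0.05 for glycolysis (19). In the citric acid cycle the lowest mean was that of Idh3b (-0.21), a subunit of isocitrate dehydrogenase. In fatty acid oxidation they ran from the carnitine carrier Slc25a20 (-0.24) to the thiolase Acaa2 (0.21). In glycolysis they ran from the phosphofructokinase Pfkp (-0.38) to Gapdh (0.23). The 91 chain genes, these 6 lists and the mitochondrially encoded genes thus had no member past the test.

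**Figure D5:**
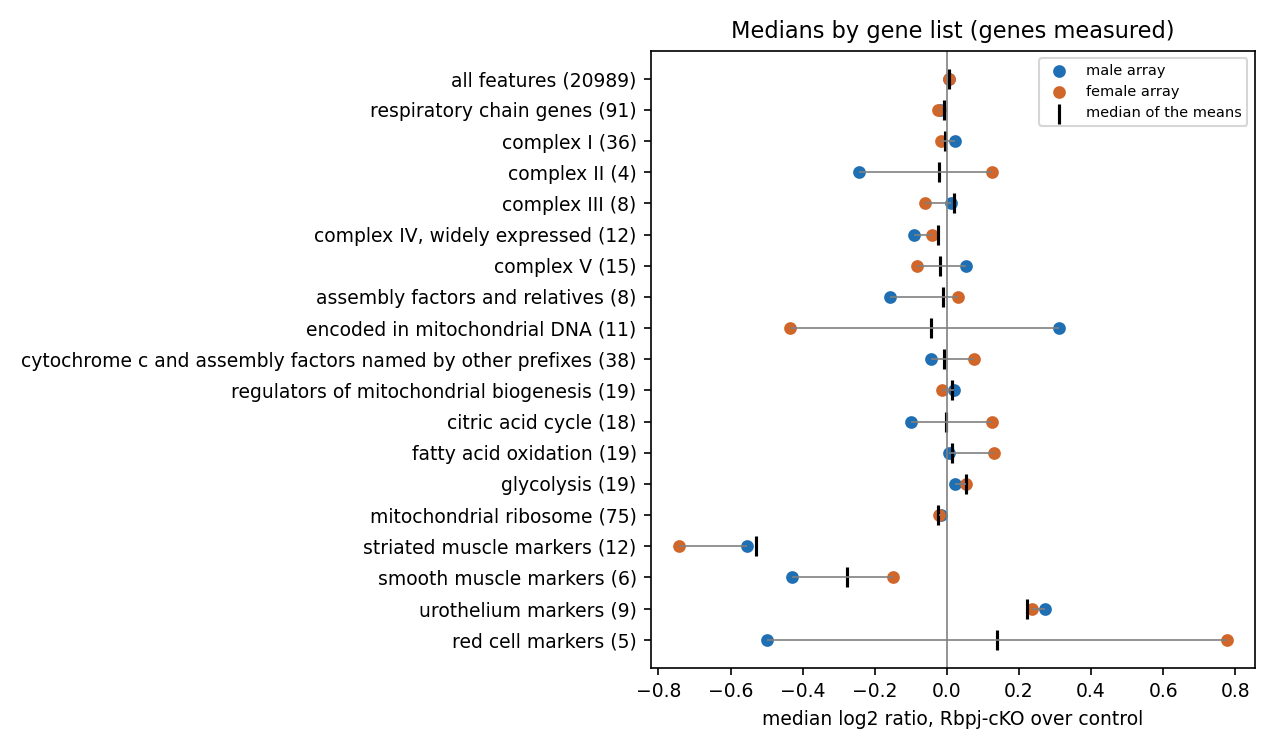
Median log2 ratio of Rbpj-cKO over control (horizontal axis) for each list of genes, with the number measured in brackets. Blue points are the male array, orange points the female array, and black bars the median of the per-gene means. Medians of the means lie near 0 for the complexes and the metabolic lists, at -0.53 for striated muscle markers and at 0.22 for urothelium markers. Complex II, mitochondrially encoded, citric acid cycle and red cell genes have points on both sides of 0, each at least 0.1 away. Several other lists also have points on both sides, with at least 1 of them nearer 0.

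The cell types of the ureter were checked by their markers. Of 6 smooth muscle markers, 5 were lower in Rbpj-cKO on both arrays, with a median of -0.28 (-0.43 and -0.15), from Des (-0.64) to Smtn (0.16). Of 9 urothelium markers, 8 were higher on both, with a median of 0.22 (0.27 and 0.23), from Trp63 (0.01) to Krt5 (0.55). Kidney markers, 4 measured, had a median of 0.60 (0.25 and 0.74), from the epithelial Lrp2 (-0.24) to Six2 (1.17), which marks nephron progenitor mesenchyme. Mesothelium markers, 4 measured, had 0.17 (0.47 and -0.05), from Lrrn4 (-0.31) to Msln (0.35). Upk3b (0.19) was counted in both the urothelium and the mesothelium list, so these 2 medians are not separate. The 5 red cell markers had medians of -0.50 (male) and 0.78 (female), from Hbb-bh1 (-0.30) to Slc4a1 (0.43) in the mean. None of these genes passed the test, and their part in the chain values was not tested.

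Promoter sequence was looked up since the deleted factor binds DNA. RefSeq promoter windows on GRCm38.p6, from 250 bases before to 50 after the gene start, were at hand for 76 of the 92 genes. Letters were searched on both strands. The RBPJ core TGGGAA was in 18.3% of the 82 windows of chain genes and in 25.6% of all 32851 windows. The 14 genes with it had a median ratio of -0.05 and the genes without it -0.01. The letters GCGCATGC, part of the site of NRF1, a known activator of respiratory genes, were in 13.4% of the chain windows and 2.71% of all windows. The ETS letters CCGGAAGT, bound by GABP, were in 6.10% against 3.89%, and the ERR letters AAGGTCA in 9.76% against 4.72%. The MEF2 letters TATTTATA were in 0 of the 82 windows and 1.70% of all, and the E-box CAGCTG in 7.32% against 16.3%. These windows are richer in G and C, with a median of 60% in the 150 bases before the start against 54%. A match is a description of letters and not a site.

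The 150 bases before the start are shown for 6 genes, each with the start of the gene at its right end. Cox8b, Cox8a and Cox7a1 are the isoforms compared above, Atp5j2 holds the RBPJ core at positions -73 and -27, Atp5k holds it at -101 together with the NRF1 letters, and Atp5g2 holds the NRF1 letters alone. Positions count back from the base before the start as -1 and give the first base of a match. Capitals mark the matches. In Atp5k (from -50) and Atp5g2 (from -42) the NRF1 letters match on both strands and overlap, and in Cox8b the E-box lies at -19.
Cox8b (chr7:140900447-140900596, minus strand): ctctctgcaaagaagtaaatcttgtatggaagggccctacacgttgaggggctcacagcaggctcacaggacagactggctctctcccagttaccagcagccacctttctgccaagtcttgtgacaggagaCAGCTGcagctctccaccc
Cox8a (chr19:7217617-7217766, minus strand): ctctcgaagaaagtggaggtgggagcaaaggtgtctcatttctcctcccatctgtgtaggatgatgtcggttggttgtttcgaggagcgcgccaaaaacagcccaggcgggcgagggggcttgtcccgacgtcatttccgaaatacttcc
Cox7a1 (chr7:30184021-30184170, plus strand): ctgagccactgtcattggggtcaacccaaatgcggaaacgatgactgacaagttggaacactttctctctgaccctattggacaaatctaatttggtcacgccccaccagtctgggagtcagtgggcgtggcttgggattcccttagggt
Atp5j2 (chr5:145191542-145191691, minus strand): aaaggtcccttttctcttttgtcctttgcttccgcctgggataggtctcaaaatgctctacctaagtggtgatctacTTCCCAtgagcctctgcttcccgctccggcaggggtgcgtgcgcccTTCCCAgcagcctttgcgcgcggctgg
Atp5k (chr5:108434400-108434549, minus strand): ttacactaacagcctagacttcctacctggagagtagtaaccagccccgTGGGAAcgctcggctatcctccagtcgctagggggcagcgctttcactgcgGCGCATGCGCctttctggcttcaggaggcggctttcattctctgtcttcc
Atp5g2 (chr15:102671048-102671197, minus strand): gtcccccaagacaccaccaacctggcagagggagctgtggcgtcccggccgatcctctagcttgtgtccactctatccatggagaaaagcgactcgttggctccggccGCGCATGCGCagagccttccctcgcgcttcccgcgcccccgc
The 2 genes shown with the RBPJ core had mean ratios of -0.08 (Atp5j2, -0.10 and -0.05) and -0.11 (Atp5k), neither past the test. Atp5j2 encodes subunit f of ATP synthase, and it was chosen for its sequence.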

How the data were processed

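Per the submitters' processing notes, arrays were read with Agilent Feature Extraction 10.7.3.1. In the deposited scanner files, mean and background signals are raw intensity, processed signals are background-subtracted, dye-normalized intensity, and the log ratio is log10 of red over green. The deposited series table gives a score per probe, which matched a signed fold from the processed signals, with its method unstated. Mean signals went through normexp (offset 50) and loess in limma 3.58.1 (R 4.3.3), control spots having weight 0. Outlier spots (200 and 274) were dropped and spots averaged per probe. A probe was kept if well above background in both Rbpj-cKO channels or both control channels. RefSeq accessions gave names to 26412 of 39429 probes, and 13017 kept the file's name. The brightest probe stood for a gene, and 20989 features were tested with lmFit and eBayes, two-sided, at an adjusted p of 0.05. The prior contributed 10.3 degrees of freedom and the arrays 1. Intervals are 95% and come from this fit. Levels also had Aquantile scaling, and a fold from them may carry dye bias, balanced here by the swap. The fit was tested on simulated data.

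The arrays share a slide and a scan, so neither could be tested as a batch. The chain genes, the other lists and the markers were chosen with earlier results of these data known. Genes named are the muscle-type isoforms with their counterparts, any gene past the test or at least 1.5-fold changed on both arrays, the 2 highest and 2 lowest of each complex and of the assembly factors, all of complex II, and the extremes of each other list. Some genes that meet this rule are not reported here. Probe positions are on mm9 and promoter positions on GRCm38.p6, and gene structure around the probes was not used here.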

Additional observations from a re-analysis of the deposited data

Results flagged for a closer look

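Several results had opposite signs on the male and the female array, and in no case was the difference tested. Sex and dye orientation cannot be told apart in these values. The median log2 ratio of complex II was -0.243 (male) and 0.126 (female). That of the genes encoded in mitochondrial DNA was 0.311 and -0.435. That of the citric acid cycle was -0.100 and 0.126. Red cell markers had -0.499 and 0.778. Of single genes of the chain, Atp5f1 had -1.19 and 0.714.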

How the results depend on the processing

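The number of chain genes past the test was 0 in each setting tried except an intensity trend in the prior variance, where it was 1 (Cox8c). The features called overall varied far more, with 0 under median centring, processed signals, the series value table or no filter on dim probes, 10 with all probes averaged per gene, 26 with the strictest filter, 29 with normexp offset 16 and 41 with the trend, against 27. Cox8c alone was at least 1.5-fold lower on both arrays, and this count was 0 under median centring and under the strictest filter, which leaves the gene out. The widely expressed complex IV genes had a median of -0.0717 and the muscle-type isoforms one of -0.0177 with processed signals and with the series value table, and the cause was not tested. Median centring moved the median of all features to 0.04. Of the 30 named chain genes, Sdha turned to 0.04 under median centring, and Atp5k alone turned sign with processed signals. Atp5k kept its sign with the series value table (-0.17). Taken from a single array, 1 gene was at least 1.5-fold higher on either, and 2 to 3 were lower. Single-array medians ran from -0.0616 to 0.0110 for complex III, from -0.0904 to -0.0410 for complex IV, from -0.157 to 0.0321 for assembly factors, and from 0.0409 to 0.0556 for the muscle-type isoforms, and 5 to 12 named genes turned sign. No paired analysis was possible because each array is already a pair of Rbpj-cKO and control RNA, and there is 1 ratio per array. The number of arrays limits the precision, and signal over background limits Cox8c and Cox7b2 as well.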
